A study of Mus musculus with 24 samples.

Results

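The 10 genes described here encode the core cardiac transcription factors Gata4, Gata6, Tbx5, Tbx20, Nkx2-5, Mef2a, Mef2c, Mef2d, Hand2 and Meis1, taken as a list of symbols from the 56923 gene identifiers counted in every library. RNA was sequenced from nuclei of mouse cardiomyocytes (CMs), which had been sorted by the nuclear marker PCM1 from frozen ventricles of C57BL/6N pups at postnatal day 1 (P1), P7 and P14, to compare hearts with and without caspase-2 in CMs while these cells become polyploid. The control mice were XMLC2(-)Casp2(fl/fl) and the Casp2-depleted mice were XMLC2(+)Casp2(fl/fl), so that both groups carried the floxed Casp2 allele and only the second also carried the Cre driven by the CM promoter XMLC2. Each of the 24 libraries, 4 per genotype and day, came from a pool of hearts (15 hearts at P1, 6 at P7 and 2 at P14). The study took animals without regard to sex, and the labels do not give the sex of a pool. The study left out 3 libraries (control replicate 1 at P1, control replicate 3 at P14 and Casp2-depleted replicate 1 at P14), and the values below rest on the other 21. The presence of Cre and the loss of Casp2 cannot be told apart in this design, nor can the day and the number of hearts in a pool.

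Heart muscle genes are controlled by a small set of DNA-binding factors that bind together at enhancers and promoters and regulate one another. GATA4 and GATA6 are zinc-finger factors that bind GATA motifs, TBX5 and TBX20 are T-box factors, NKX2-5 is a homeodomain factor, and HAND2 is a basic helix-loop-helix factor that binds E-boxes and is needed for the right ventricle. The MEF2 proteins are MADS-box factors that switch on genes of muscle differentiation and are held in check by class II histone deacetylases, and MEIS1 is a homeodomain cofactor that restrains the cell cycle of postnatal CMs.

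On GRCm39 the genes lie on 10 chromosomes, and reads were counted over the whole gene, exons and introns together. The GATA gene Gata4 is at chr14:63436362-63509141, minus strand, and the T-box genes are Tbx5 (chr5:119970733-120023284, plus strand) and Tbx20 (chr9:24629434-24685599, minus strand). Nkx2-5 (chr17:27057638-27063983, minus strand) and Hand2 (chr8:57774011-57777677, plus strand) are the shortest of the 10, with spans of 6.35 and 3.67 kb. The MEF2 genes are Mef2a (chr7:66880911-67022606, minus strand), Mef2c (chr13:83652064-83815555, plus strand) and Mef2d (chr3:88049185-88079398, plus strand), and the last is Meis1 (chr11:18829817-18969749, minus strand). Gata6 overlaps the antisense RNA Gata6os over 1692 bases, and Hand2 lies wholly within the antisense Hand2os1. The counts separated the strands: of 654 genes lying within another gene on the same strand 1.38% had at least 10 reads, against 45.8% of 2124 lying within a gene on the opposite strand.

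Promoter sequence is shown for the 4 members with a window in the table that were called lower at P14 than at P7 in at least 1 genotype, to set the start regions of genes that moved together side by side. RefSeq windows of GRCm38.p6 matched 7 of the 10 symbols, and the 250 bases before the start are printed 5′ to 3′ on the gene's strand: Mef2a at chr7:67372859-67373108 on the minus strand, Mef2d at chr3:88142122-88142371 on the plus strand, Tbx20 at chr9:24774304-24774553 on the minus strand and Hand2 at chr8:57320733-57320982 on the plus strand. Capitals mark matches on either strand to GATA motifs (AGATAA or AGATAG, besides the forms TGATAA and TGATAG), a T-box motif (AGGTGT), an NKX motif (TNAAGTG), the E-box (CANNTG), a MEIS motif (TGACAG) or the MEF2 motif.
Mef2a: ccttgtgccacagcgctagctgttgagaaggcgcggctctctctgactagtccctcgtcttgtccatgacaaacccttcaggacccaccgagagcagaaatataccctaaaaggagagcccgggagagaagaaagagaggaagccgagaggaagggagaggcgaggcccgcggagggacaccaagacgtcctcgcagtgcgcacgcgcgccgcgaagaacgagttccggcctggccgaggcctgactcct
Mef2d: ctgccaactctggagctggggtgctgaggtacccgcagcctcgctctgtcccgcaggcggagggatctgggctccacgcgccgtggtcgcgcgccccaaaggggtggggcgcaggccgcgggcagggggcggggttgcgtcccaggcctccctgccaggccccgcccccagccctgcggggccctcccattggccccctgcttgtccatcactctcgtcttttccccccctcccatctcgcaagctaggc
Tbx20: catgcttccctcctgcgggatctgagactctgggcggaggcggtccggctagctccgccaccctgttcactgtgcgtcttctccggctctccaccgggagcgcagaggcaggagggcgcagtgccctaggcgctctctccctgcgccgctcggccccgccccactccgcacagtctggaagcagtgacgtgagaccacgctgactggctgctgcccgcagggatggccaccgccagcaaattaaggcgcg
Hand2: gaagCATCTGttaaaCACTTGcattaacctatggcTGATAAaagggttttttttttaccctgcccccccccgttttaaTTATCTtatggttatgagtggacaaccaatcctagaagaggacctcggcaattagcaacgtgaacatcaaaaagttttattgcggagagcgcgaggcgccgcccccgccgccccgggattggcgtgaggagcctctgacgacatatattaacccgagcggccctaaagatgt
In the Hand2 window 2 GATA matches and 2 E-boxes were found, and no match overlapped another. The windows of Mef2a, Mef2d and Tbx20, with GC contents of 61.6%, 73.2% and 68.8%, held none of these letters. Of all 32817 windows of this length, 26.6% held a GATA match, 66.2% an E-box, 15.9% the MEIS motif, 11.8% the T-box motif, 10.1% the NKX motif and 2.92% the MEF2 motif. A match is a run of letters and not a measured binding site.

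The 21 libraries held between 891817 and 2924097 reads on genes, so that 3 reads corresponded to 1.03 to 3.36 CPM (counts scaled to a common library total). All 15 CM markers fixed for the check had reads in every group, and their summed level lay between 18922 and 98508 CPM, whereas the summed levels of fibroblast, endothelial, mural, macrophage, erythroid, epicardial and atrial lists reached at most 1115 CPM in any library. The libraries of P14 detected 7628 to 13651 genes, fewer than the 14006 to 17770 of P7. Casp2 had 9 reads in 3 of 4 control libraries and 8 reads in 2 of 4 Casp2-depleted libraries at P7 and none at P1 or P14, which is too few to check the genotype labels. Levels below are CPM scaled by the trimmed mean of M-values (TMM), and a gene was called when its log2 fold change was above 1 in size and its adjusted p was under 0.05 in the quasi-likelihood test of edgeR, adjusted over 20368 genes by the Benjamini-Hochberg method. All 10 members passed the filter on low counts. The labels do not say that pools came from separate litters, so these p-values measure the spread between these pools.

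**Figure D1:**
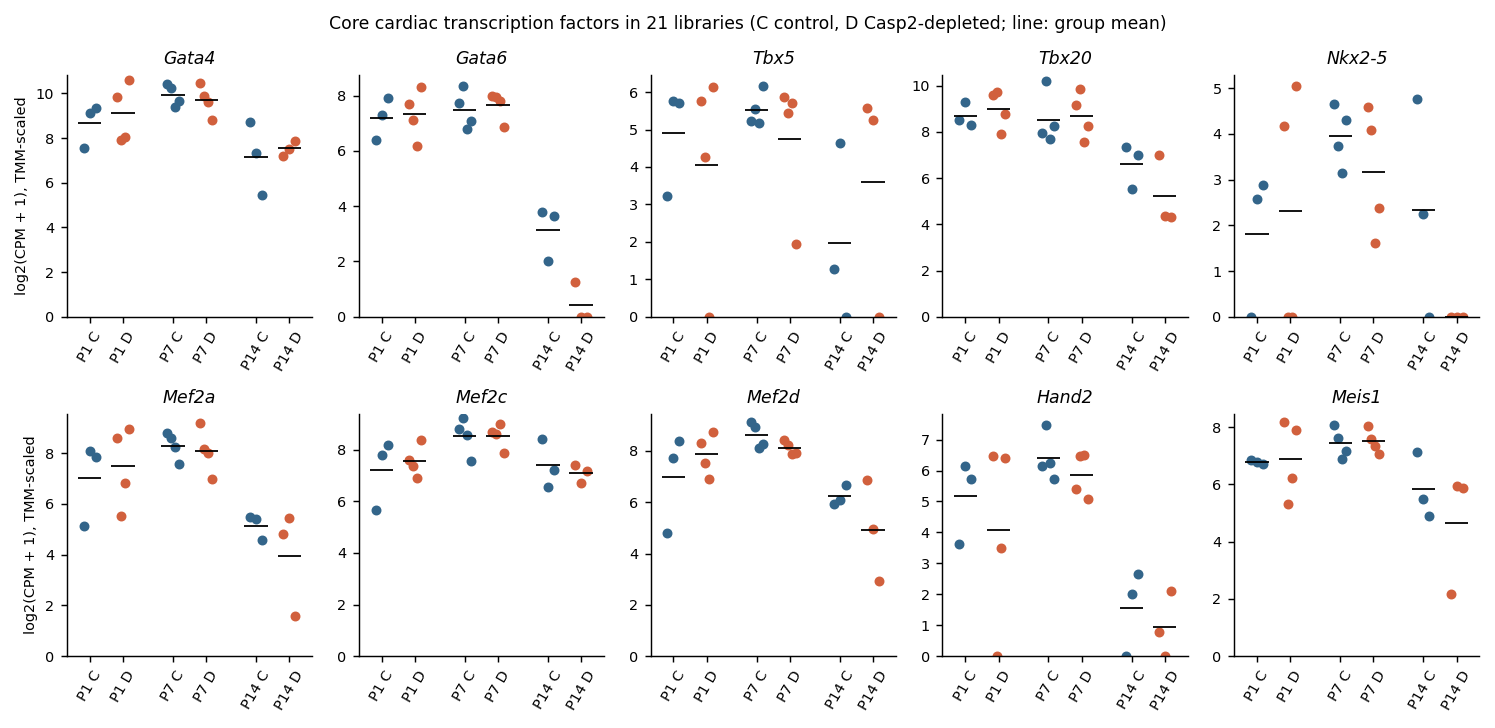
Level of each of the 10 transcription factors in the 21 libraries, as log2(CPM + 1) with TMM scaling (vertical axis), by day and genotype (C, control; D, Casp2-depleted). Points are libraries and lines are group means; Gata6 and Hand2 drop furthest at P14, whereas the Mef2c libraries of P14 stay close to those of P1.

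From P7 to P14, 5 of the 10 core factors were called lower in control CMs (Gata4, Gata6, Tbx20, Mef2a and Mef2d), where 1.87% of all genes tested were called lower, and in Casp2-depleted CMs 6 were called lower (the same 5 and Hand2), where the share was 2.82%. The members were chosen with earlier results of these data known, so these shares describe the background and test nothing. No member was called higher in either genotype. All 10 fold changes were below 0 in both, as were those of 62.2% and 60.1% of all genes, with a median of -2.36 in controls and -2.80 in Casp2-depleted CMs on the log2 scale, beside medians of -0.75 and -0.61 over all genes. Setting Nkx2-5, which had no read at P14 in Casp2-depleted CMs, to its bound left their median at -2.80. The libraries of P7 and P14 did not overlap for 7 members in controls and for 9 in Casp2-depleted CMs, beside 13.5% and 10.9% of all genes with P14 entirely below P7. In bulk nuclei, fewer nuclei that express a gene and less RNA of it per nucleus cannot be told apart.

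**Figure D2:**
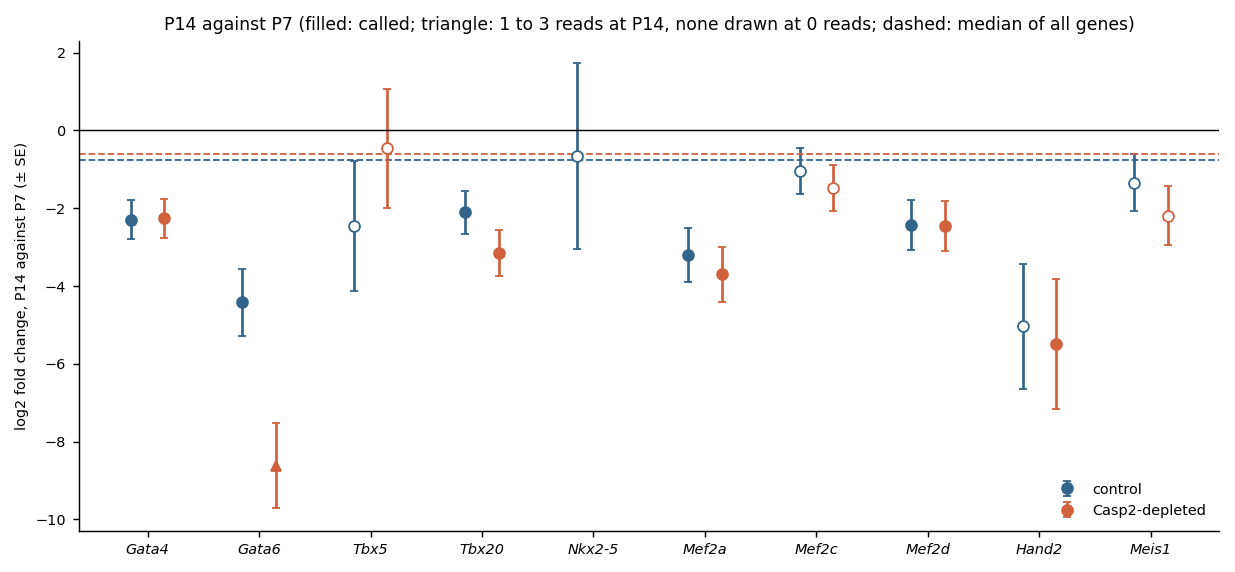
Log2 fold change of each transcription factor from P7 to P14 (vertical axis, ± SE) in control and Casp2-depleted CMs. Filled symbols are called, the triangle marks a gene with 1 to 3 reads in all at P14, Nkx2-5 is not drawn for Casp2-depleted CMs because it had 0 reads there, and dashed lines give the medians over all genes of -0.75 and -0.61, below which most members lie.

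Gata4, the most abundant GATA factor of the heart, had 1352, 1208, 666 and 811 CPM in the 4 control libraries of P7 and 414, 159 and 43.3 CPM in the 3 of P14. The Casp2-depleted libraries had 1408, 955, 781 and 449 CPM at P7 and 147, 183 and 235 CPM at P14. Every library of P14 was below every library of P7 in both genotypes. Gata4 fell by 2.30 ± 0.50 on the log2 scale (SE, adjusted p = 0.00103) in controls, from 1009 ± 324 CPM (SD, n = 4) to 206 ± 189.8 CPM (SD, n = 3), and fell by 2.25 ± 0.50 on the log2 scale (SE, adjusted p = 0.000775) in Casp2-depleted CMs. The call in controls was lost without control replicate 4 of P14, with a log2 fold change of -1.82 (adjusted p = 0.123). At P1 its levels were 189.6, 559 and 658 CPM in controls and 915, 243, 265 and 1537 CPM in Casp2-depleted CMs. In controls every library of P1 was below those of P7, and in Casp2-depleted CMs every library of P1 was above those of P14, whereas the other comparisons with P1 overlapped.

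Gata6 (chr18:11051565-11086995, plus strand), its close relative, was near the limit of detection at P14. It had 213, 323, 111 and 133 CPM in the control libraries of P7 and 12.7, 3.00 and 11.4 CPM in those of P14. In Casp2-depleted CMs it had 252, 247, 219 and 115 CPM at P7, whereas at P14 1 library held 2 reads (1.41 CPM) and the other two held none. The libraries of P14 lay far below those of P7 and P1 with no overlap. Gata6 fell by 4.42 ± 0.85 on the log2 scale (SE, adjusted p = 8.99e-05) in controls, a 21.6-fold lower mean. In Casp2-depleted CMs 1333 reads at P7 stood against 2 at P14, a scaled ratio of 481 (95% counting interval 133 to 3975). The interval covers counting error in the summed reads only and leaves out the spread between libraries. The edgeR test gave an adjusted p of 9.9e-12. Its P1 levels were 83.7, 154 and 241 CPM in controls and 204, 139, 70.4 and 312 CPM in Casp2-depleted CMs, and they overlapped those of P7.

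The antisense RNA Gata6os, which overlaps Gata6 on the other strand, had overlapping levels on both days. Its levels were 212, 82.1, 98.2 and 137 CPM at P7 and 90.5, 164 and 129.8 CPM at P14 in controls, and 166, 133, 144 and 193 CPM at P7 and 226, 107 and 2.62 CPM at P14 in Casp2-depleted CMs. The groups overlapped in both genotypes, although 1 of the 3 Casp2-depleted libraries of P14 held only 4 reads. Its log2 fold changes were -0.05 ± 0.67 (SE, adjusted p = 1) in controls and -0.51 ± 0.68 (SE, adjusted p = 0.778) in Casp2-depleted CMs, and it was not called. The difference between Gata6 and Gata6os was not tested.

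Of the T-box factors, Tbx20 was called lower and Tbx5 was not. Tbx20, needed to maintain contractile gene expression in CMs, had 245, 1164, 203 and 302 CPM in the control libraries of P7 and 159.8, 45.0 and 128 CPM at P14. In Casp2-depleted CMs it had 565, 920.5, 187 and 301 CPM at P7 and 128, 19.5 and 19.0 CPM at P14. The days did not overlap in either genotype, and replicate 2 was the highest P7 library in both. Tbx20 fell by 2.11 ± 0.56 on the log2 scale (SE, adjusted p = 0.014) in controls and fell by 3.15 ± 0.59 on the log2 scale (SE, adjusted p = 1.79e-05) in Casp2-depleted CMs. Without control replicate 2 of P7 its log2 fold change in controls was -1.08 (adjusted p = 0.393), and the call in controls was also lost without control replicate 2 or 4 of P14. Tbx5, a factor of the left ventricle and the conduction system, ranged from 35.3 to 70.5 CPM at P7 and from 0 to 24.005 CPM at P14 in controls, and from 2.81 to 57.0 and 0 to 46.5 CPM in Casp2-depleted CMs. Its log2 fold changes of -2.46 ± 1.66 (SE, adjusted p = 0.416) in controls and -0.46 ± 1.53 (SE, adjusted p = 0.951) in Casp2-depleted CMs were not called, although its days did not overlap in controls, and in Casp2-depleted CMs it was at 0.33 without replicate 4 of P14.

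Hand2 and Nkx2-5 were measured from few reads. Hand2 had 70.1, 175, 75.3 and 52.5 CPM in the control libraries of P7 and 0, 3.00 and 5.31 CPM in those of P14. The Casp2-depleted libraries had 41.1, 87.2, 90.1 and 33.0 CPM at P7 and 0.705, 0 and 3.28 CPM at P14. The libraries of P14 held at most 7 reads each, and all lay below those of P7. Hand2 fell by 5.48 ± 1.67 on the log2 scale (SE, adjusted p = 0.0388) in Casp2-depleted CMs, where 376 reads at P7 stood against 6 at P14, and in controls its log2 fold change was -5.04 ± 1.62 (SE, adjusted p = 0.0767), which was not called. The call in Casp2-depleted CMs was lost in 6 of 7 fits that left out 1 library, all but that without replicate 4 of P7, with adjusted p from 0.0767 to 0.287. The antisense Hand2os1 ranged from 26.2 to 187 CPM at P7 and from 0 to 21.8 CPM at P14 in controls, with a log2 fold change of -3.31 ± 1.40 (SE, adjusted p = 0.262). In Casp2-depleted CMs it had 110.2, 1.59, 15.1 and 30.2 CPM at P7 and 34.6, 29.0 and 0 CPM at P14, which overlapped, with a log2 fold change of -0.89 ± 1.25 (SE, adjusted p = 0.796).

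Nkx2-5, an early marker of the cardiac lineage, had the fewest reads of the 10, with 333 over the 21 libraries. It had 24.049, 12.2, 7.85 and 18.7 CPM in controls at P7 and 26.2, 3.75 and 0 CPM at P14. In Casp2-depleted CMs it had 22.9, 15.9, 2.06 and 4.22 CPM at P7, and no read was found in any of the 3 libraries of P14. With the reads of each group summed and a bound of 3 reads over the group, its level there was at least 18.8-fold lower than at P7. The bound leaves out the spread between libraries, and 49 of the 78 reads of P7 were in replicate 1. No comparison of Nkx2-5 was called, and its adjusted p from P7 to P14 was 0.954 in controls and 0.253 in Casp2-depleted CMs.

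Of the 3 MEF2 genes, Mef2a and Mef2d were called lower and Mef2c was not. Mef2a had 439, 389, 303 and 187 CPM in controls at P7 and 43.1, 41.3 and 22.8 CPM at P14, and in Casp2-depleted CMs 575, 288, 255 and 124 CPM at P7 and 26.8, 42.9 and 1.97 CPM at P14. Mef2d had 561, 487, 278 and 308 CPM in controls at P7 and 59.4, 67.5 and 100.2 CPM at P14, and in Casp2-depleted CMs 341, 302, 232 and 239.7 CPM and 116, 30.3 and 6.55 CPM. For both genes P14 lay wholly below P7 in each genotype. Mef2a fell by 3.20 ± 0.69 on the log2 scale (SE, adjusted p = 0.000814) in controls and fell by 3.70 ± 0.71 on the log2 scale (SE, adjusted p = 3.82e-05) in Casp2-depleted CMs. Mef2d fell by 2.43 ± 0.64 on the log2 scale (SE, adjusted p = 0.014) in controls and fell by 2.45 ± 0.65 on the log2 scale (SE, adjusted p = 0.00858) in Casp2-depleted CMs. Leaving out 1 library at a time ended the Mef2d call in 4 of 7 fits in controls (without replicate 1 or 2 of either day) and in 2 of 7 in Casp2-depleted CMs (without replicate 3 or 4 of P14).

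Mef2c, the MEF2 gene needed for looping of the early heart, was lower in mean at P14 but not called. It had 441, 593, 379 and 186 CPM in controls at P7 and 344, 93.0 and 146 CPM at P14, and in Casp2-depleted CMs 412, 394, 510.4 and 231 CPM at P7 and 169, 103 and 145 CPM at P14. The days overlapped in controls and did not in Casp2-depleted CMs. Its log2 fold changes of -1.04 ± 0.58 (SE, adjusted p = 0.33) in controls and -1.47 ± 0.59 (SE, adjusted p = 0.199) in Casp2-depleted CMs did not pass the threshold. Meis1 ranged from 116 to 268 CPM at P7 and 28.8 to 140.0 CPM at P14 in controls, and from 132 to 262 and 3.53 to 60.5 CPM in Casp2-depleted CMs, with log2 fold changes of -1.34 ± 0.73 (SE, adjusted p = 0.328) and -2.19 ± 0.76 (SE, adjusted p = 0.101) that were not called either.

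The calls from P7 to P14 depended on the scaling and on single libraries. In controls they came to 0 with all 24 libraries or with a covariate for the share of reads outside genes, to 1 (Gata6) with library sizes alone, and to 3 without control replicate 2 of P7 or without control replicate 2 or 4 of P14. In Casp2-depleted CMs they came to 3 with all 24 libraries or library sizes alone and to 2 (Gata6 and Tbx20) with that covariate. With library sizes alone, where the median of all genes was at 0, all 10 members in controls and 9 of 10 in Casp2-depleted CMs were below 0, with medians of -1.62 and -2.09. With the covariate for reads outside genes, 8 of 10 in controls and 9 of 10 in Casp2-depleted CMs were below 0, and the medians were -0.82 beside -0.66 over all genes and -1.53 beside -0.43. The gap between the members' median and that of all genes in controls was thus -0.16 with this covariate, against -1.61 without it, and it was -0.36 without control replicate 2 of P14 (-2.11 beside -1.75). With a covariate for the number of detected genes it was -0.83 in controls. Gata6 and Mef2a were called in each of the 7 fits that left out 1 library, in both genotypes.

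The markers of CMs themselves went the same way. Of the 15 CM markers, 6 were called lower from P7 to P14 in controls and 9 in Casp2-depleted CMs. Of all genes 1.87% and 2.82% were called lower. The summed marker levels given here are CPM by library size, without TMM scaling, and so are not on the scale of the members' levels. Sums with TMM scaling are not given, so overlap between days is described for library sizes only. The summed level of the 15 markers ranged from 74060 to 98508 CPM at P7 and from 19630 to 56076 CPM at P14 in controls. In Casp2-depleted CMs it ranged from 55565 to 75055 CPM at P7 and from 18922 to 36307 CPM at P14. Of the tested markers of the other 7 cell types, none was called in controls and 1, of mural cells, was called lower in Casp2-depleted CMs. The summed fibroblast level ranged from 78.9 to 213 CPM at P7 and from 174 to 328 CPM at P14 in controls, with all 8 genes read on both days, and from 113 to 181 CPM and from 202 to 379 CPM in Casp2-depleted CMs, where P14 lay above P7. The summed endothelial level ranged from 144 to 334 CPM at P7 and from 53.2 to 1115 CPM at P14 in controls, and from 148 to 468 CPM and from 587 to 630 CPM in Casp2-depleted CMs, where P14 lay wholly above P7. Of its 8 genes Egfl7 had no read in any group, and Cdh5 and Kdr had none at P14 in Casp2-depleted CMs. The summed macrophage level had medians of 58.9 CPM at P7 and 93.8 CPM at P14 in controls and of 53.8 and 231 CPM in Casp2-depleted CMs, with overlap, and Cd68 had no read in any group. In Casp2-depleted CMs the mural level ranged from 318 to 491 CPM at P7 and from 183 to 291 CPM at P14 without overlap. The mural days overlapped in controls. Erythroid medians were lower at P14 in controls (18.5 to 2.92 CPM) and in Casp2-depleted CMs (42.7 to 12.0 CPM), with overlap. The atrial median was lower in controls only (21.4 to 5.84 CPM) and the epicardial in Casp2-depleted CMs only (46.4 to 31.7 CPM). The part of these markers, of the fewer genes detected and of the larger share of reads on no gene at P14 (63.7% to 76.1%, against 34.3% to 64.3% at P7) in the lower levels of the factors was not tested.

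To set the factors beside the CM markers of the same library, reads were expressed per 1000 reads of the 15 markers, a ratio that no scaling factor enters. On this scale Gata6 had 2.41, 1.88, 0.988 and 1.38 in controls at P7 and 0.251, 0.198 and 0.452 at P14. Hand2 had 0.792, 1.02, 0.673 and 0.547 at P7 and 0, 0.198 and 0.211 at P14. These were the 2 members whose P14 libraries lay below those of P7 in both genotypes without overlap, and Nkx2-5 joined them in Casp2-depleted CMs. Mef2c had 4.99, 3.45, 3.39 and 1.94 at P7 and 6.78, 6.15 and 5.79 at P14 in controls, with P14 wholly above P7, and in Casp2-depleted CMs 4.35, 3.73, 5.87 and 4.07 at P7 and 5.64, 7.995 and 10.4 at P14, which overlapped. For Gata4 the ratio was 15.3, 7.04, 5.95 and 8.45 at P7 and 8.17, 10.5 and 1.72 at P14 in controls, and 14.9, 9.03, 8.98 and 7.92 at P7 and 4.93, 14.2 and 16.7 at P14 in Casp2-depleted CMs. The days overlapped, and the median was higher at P14 in both genotypes (8.17 against 7.75 in controls, 14.2 against 9.01 in Casp2-depleted CMs). The median was also higher at P14 for Tbx20, Nkx2-5, Mef2c, Mef2d and Meis1 in controls and for Tbx5, Mef2c and Meis1 in Casp2-depleted CMs, so that Tbx20 and Mef2d, which were called lower in CPM, were not lower in median on this scale in controls. In Casp2-depleted CMs both were lower in median at P14 (1.51 against 5.64 and 2.34 against 3.23). Mef2a was lower in median in both genotypes (0.904 against 2.49 in controls, 0.897 against 2.83 in Casp2-depleted CMs), and Tbx5 was in controls (0.0279 against 0.365). The days overlapped for Tbx5, Tbx20, Mef2a, Mef2d and Meis1 in both genotypes. These ratios are given as a description with no test. How many of all genes had days without overlap on this scale is not given here, so the counts of members have no background.

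**Figure D3:**
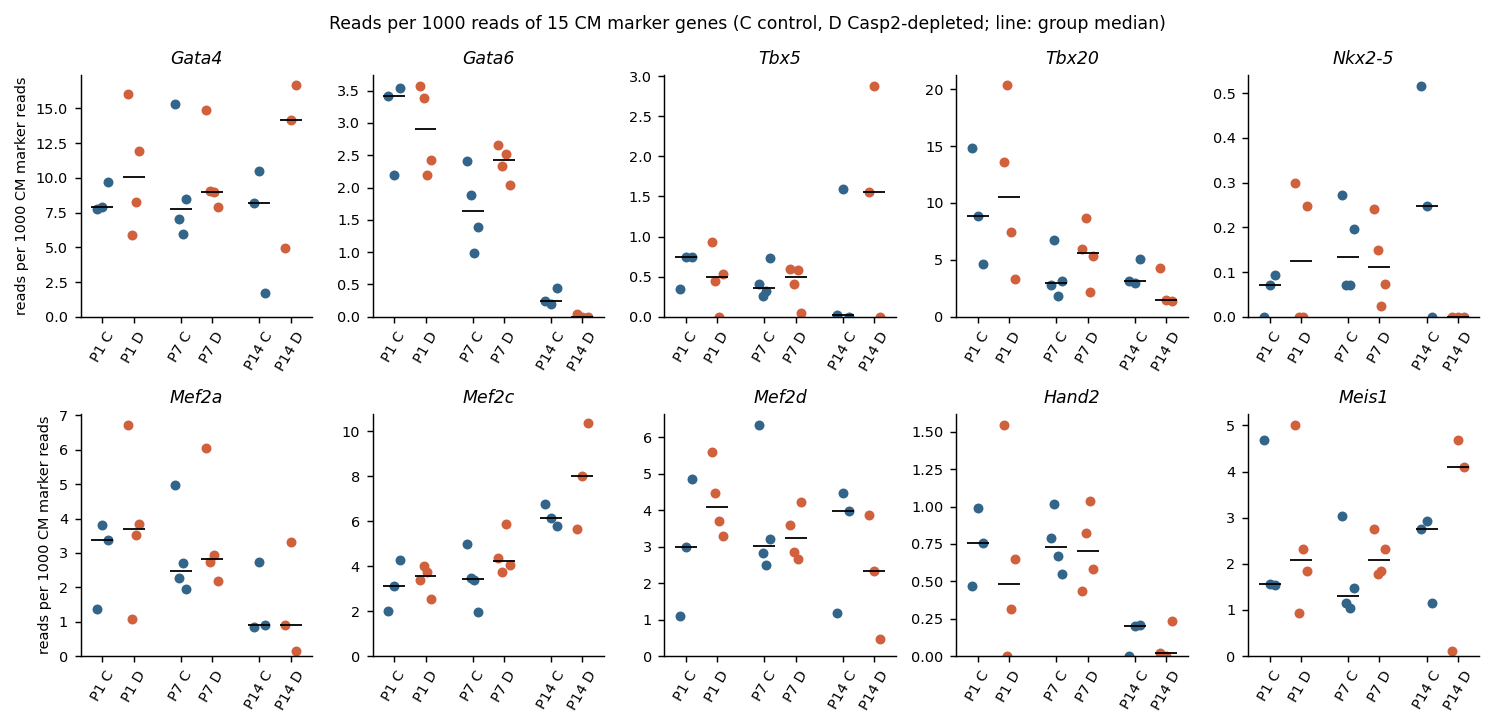
Reads of each transcription factor per 1000 reads of the 15 CM markers of the same library (vertical axis), by day and genotype (C, control; D, Casp2-depleted). Points are libraries and lines are group medians; Gata6 and Hand2 are lower at P14 in both genotypes, and Mef2c is higher at P14 in controls without overlap.

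Within families, shares of reads were compared in tests chosen after the data had been seen. Mef2c made up 30.6, 40.4, 39.5 and 27.3% of the reads of the 3 MEF2 genes in the control libraries of P7 and 77.0, 46.1 and 54.2% in those of P14. In Casp2-depleted CMs it made up 31.0, 40.0, 51.2 and 38.8% at P7 and 54.2, 58.6 and 94.5% at P14. No library of P14 overlapped P7 within a genotype. The mean went from 37.4% ± 7.56 (SD, n = 8) to 64.1% ± 18.1 (SD, n = 6), a rise of 26.7 percentage points with p = 0.000816 in a two-sided exact permutation test within genotypes, which is the smallest p it can give (adjusted p = 0.0122 over 15 tests of family shares). Within each genotype the rise was 24.7 points in controls and 28.8 points in Casp2-depleted CMs, with an exact permutation p of 0.0286 in each, again the smallest possible. With all 24 libraries it was 28.9 points.

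Gata6 made up 13.6, 21.1, 14.2 and 14.1% of the reads of Gata4 and Gata6 in the control libraries of P7 and 2.98, 1.85 and 20.8% at P14. In Casp2-depleted CMs it made up 15.2, 20.5, 21.9 and 20.4% at P7 and 0.948, 0 and 0% at P14. Control replicate 4 of P14, with 15 of 72 reads on Gata6 (95% Wilson interval 13.1% to 31.6%), was the 1 library of P14 within the range of P7. The mean share fell from 17.6% ± 3.64 (SD, n = 8) to 4.44% ± 8.11 (SD, n = 6), with an exact permutation p of 0.00571 and an adjusted p of 0.0429. The exact permutation p was 0.0286 in Casp2-depleted CMs alone and 0.2 in controls alone. The share of Tbx5 in the reads of Tbx5 and Tbx20 was 10.8% ± 7.46 (SD, n = 8) at P7 and 21.3% ± 26.4 (SD, n = 6) at P14, a difference within the spread of the libraries (exact permutation p = 0.346). Between genotypes no share passed at any day, with a lowest adjusted p of 0.343 in exact permutation tests. At P14 the Gata6 share was lower in Casp2-depleted CMs without overlap, and the exact permutation p of 0.1 is the smallest that 3 against 3 libraries allow. Intervals of single shares cover counting error only.

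**Figure D4:**
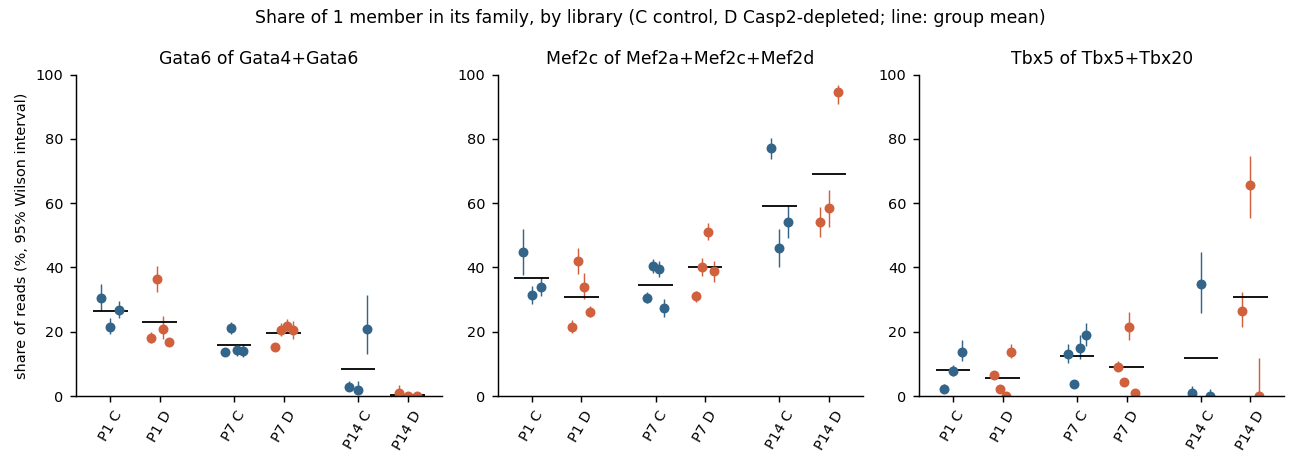
Share of Gata6 in the reads of Gata4 and Gata6, of Mef2c in those of the 3 MEF2 genes and of Tbx5 in those of Tbx5 and Tbx20 (vertical axis, percent), by day and genotype (C, control; D, Casp2-depleted). Points are libraries with 95% Wilson intervals and lines are group means; the Mef2c share is above 46% in every library of P14, and the Gata6 share is under 3% in 5 of 6.

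From P1 to P7 no member was called in either genotype, where 0.00982% of all genes were called in controls and 0.0196% in Casp2-depleted CMs. In controls all 10 fold changes were above 0, with a median of 0.98 on the log2 scale beside 0.21 over all genes. Tbx20 and Gata6 were below 0 without control replicate 2 of P7 (-0.84 and -0.10), Gata6, Tbx5 and Tbx20 were without control replicate 2 of P1, and 8 of 10 were with the covariate for reads outside genes. With all 21 libraries 1 member, Gata4, had an unadjusted p under 0.05 in controls, as had 6.67% of all genes. Gata4 had a log2 fold change of 1.11 ± 0.48 (SE, adjusted p = 0.626), and the P7 libraries lay wholly above P1 for it, Nkx2-5 and Meis1 (3 members, where this held for 6.89% of all genes). In Casp2-depleted CMs 8 of 10 were above 0 with a median of 0.21 beside 0.07, and none had an unadjusted p under 0.05, where 7.4% of all genes had. DESeq2 and limma-voom called no member in either genotype.

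From P1 to P14, 1 member was called lower in controls, where 0.314% of all genes were, and 5 were called lower in Casp2-depleted CMs, where 1.92% were. Gata6 fell by 4.13 ± 0.86 on the log2 scale (SE, adjusted p = 0.00144) in controls. In Casp2-depleted CMs Gata4, Gata6, Tbx20, Mef2a and Mef2d were called, and Tbx20 fell by 3.36 ± 0.59 on the log2 scale (SE, adjusted p = 8.36e-06), the second smallest adjusted p after Gata6. In controls Gata6, Tbx20 and Hand2 of P14 lay wholly below P1 (3 members, where this held for 6.41% of all genes), and the last 2 were not called. Mef2c had a log2 fold change of 0.06 ± 0.60 (SE, adjusted p = 1) in controls, and its libraries of P14 overlapped those of P1. With the replicate number as a block, 2 members were called in controls, Gata6 and Tbx20, and without control replicate 1 of P14 Gata4 and Gata6 were. In Casp2-depleted CMs the count was 3 without replicate 1 or 4 of P1 or replicate 3 of P14, and 2 without replicate 4 of P14.

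Between genotypes, no member was called at P1 or P7, where no gene at all was called (percent called 0.0, whereas 1496 and 860 genes, or 7.34% and 4.22%, had an unadjusted p under 0.05, none of them a member). DESeq2 called 105 and 25 genes at these days and limma-voom with TMM scaling 49 and 0, and neither called a member. With limma and the same thresholds, the paper reports differentially expressed genes between these genotypes at P7. The reason for this difference was not tested. At P14 Gata6 was called lower in Casp2-depleted CMs than in controls, where 0.137% of genes were called lower. Its 3 control libraries held 18, 4 and 15 reads and its 3 Casp2-depleted libraries held 2, 0 and 0, and the groups did not overlap. The summed reads gave a scaled ratio of 20.6 (95% counting interval 5.32 to 177), and this interval leaves out the spread between libraries. The edgeR test gave an adjusted p of 0.0405. This call held with DESeq2, and it ended with all 24 libraries, with library sizes alone, with a fit of only these groups, without robust estimation of the spread, with the replicate block, with limma-voom, with other filters on low counts, and without control replicate 1, Casp2-depleted replicate 3 or Casp2-depleted replicate 4 of P14. Without Casp2-depleted replicate 2 of P14 there were 2 calls, Gata6 and Tbx20.

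The other 9 members did not pass at P14. Nkx2-5 had 42 reads in the controls of P14, 37 of them in replicate 1, and none in Casp2-depleted CMs. With the reads summed and the bound of 3 reads over the group, it was at least 15.6-fold lower. That bound leaves out the spread between libraries. Control replicate 4 also had no read, and the groups overlapped. With all 21 libraries Tbx5 was the 1 member with a fold change above 0, at 1.71 ± 1.68 (SE, adjusted p = 0.799). Gata4 differed by -0.12 ± 0.50 (SE, adjusted p = 1), with a 95% interval from -1.10 to 0.85, and by 0.90 without control replicate 1 of P14. Averaged over the 3 days no member was called (0.0147% of genes were), and the lowest adjusted p was that of Gata6 at 0.332. The step from P7 to P14 did not differ between genotypes by a call for any member (0.0245% of genes were called), with the smallest adjusted p of 0.337 for Gata6, nor did the steps from P1 to P7, where no gene was called and no member, but 6.83% of genes, had an unadjusted p under 0.05, or from P1 to P14 (0.0638% of genes called, smallest adjusted p of 0.146 for Gata6).

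Compared per kb of gene, Hand2 had the highest mean level at P1 and P7 and the sixth highest at P14. Its level per kb in controls was 12.1 CPM per kb at P1 and 25.4 CPM per kb at P7, above the 13.9 of Gata4, 13.5 of Mef2d and 8.52 of Tbx20 at P7. At P14 Gata4 led in both genotypes, with 2.82 CPM per kb in controls and 2.59 in Casp2-depleted CMs, followed by Mef2d with 2.51 and 1.68. Tbx5 was the lowest in controls at P7 and P14, at 0.893 and 0.161 CPM per kb. The kit reads transcripts from their 3′ side, so that reads need not grow with the span of a gene, and the order depends on the division by it. Hand2 has the shortest span of the members, at 3.67 kb. Without the division its mean over the libraries was 45.3 CPM, against 628 CPM for Gata4.

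In order of group means, the 2 groups of P14 came last for Gata4, Gata6, Tbx5, Tbx20, Mef2a, Mef2d, Hand2 and Meis1. For Gata6 each of the last steps was free of overlap, from controls of P1 at 159.6 ± 78.7 CPM (SD, n = 3) to controls of P14 at 9.04 ± 5.27 CPM (SD, n = 3) and then to Casp2-depleted CMs of P14. For Tbx20 and Hand2 the step from P1 controls to P14 controls was free of overlap, and their neighbouring groups otherwise overlapped. For Gata4, Tbx5, Nkx2-5, Mef2a, Mef2c, Mef2d and Meis1 every pair of neighbouring groups overlapped, so that no neighbours in their order differed beyond their spread.

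Other genes of the cardiac network were followed in 3 lists, which were also chosen with earlier results of these data known. Of 31 tested cofactors and fellow transcription factors, 2 were called lower from P7 to P14 in controls and 3 in Casp2-depleted CMs. Of all genes 1.87% and 2.82% were called lower. The list had medians of -0.81 and -1.21 beside -0.75 and -0.61 over all genes. Smyd1, a muscle histone methyltransferase, fell by 3.30 ± 0.89 on the log2 scale (SE, adjusted p = 0.0167) in controls, and Irx4, a ventricular homeodomain factor, had 247 reads in controls at P7 and none at P14. In Casp2-depleted CMs the calls were Hopx, with 500 reads at P7 and none at P14, Tead1, which fell by 2.07 ± 0.63 on the log2 scale (SE, adjusted p = 0.0381), and Prdm16, which fell by 1.71 ± 0.53 on the log2 scale (SE, adjusted p = 0.0434). None of the list was called higher.

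Of 20 target genes of the factors, 6 were called lower in controls and 9 in Casp2-depleted CMs, beside 1.87% and 2.82% of all genes. The list had medians of -2.07 and -2.34, beside -0.75 and -0.61 over all genes. Several of the 20 also stand among the CM markers. Slc8a1, the sodium-calcium exchanger, fell by 2.21 ± 0.36 on the log2 scale (SE, adjusted p = 1.55e-06) in controls and fell by 3.23 ± 0.38 on the log2 scale (SE, adjusted p = 1.03e-13) in Casp2-depleted CMs. Ankrd1, a stress-responsive protein of the sarcomere, fell by 5.01 ± 1.11 on the log2 scale (SE, adjusted p = 0.0282) in controls and fell by 5.85 ± 1.16 on the log2 scale (SE, adjusted p = 0.00862) in Casp2-depleted CMs, and Actc1, cardiac actin, fell by 3.13 ± 0.77 on the log2 scale (SE, adjusted p = 0.00599) in controls. Ppargc1a, a coactivator of mitochondrial genes, fell by 2.94 ± 0.75 on the log2 scale (SE, adjusted p = 0.00563) in Casp2-depleted CMs.

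Of 14 kinases, phosphatases and deacetylases that act on MEF2 proteins, 2 were called lower from P7 to P14 in controls and 3 in Casp2-depleted CMs. Of all genes 1.87% and 2.82% were called lower. The list had medians of -1.68 and -1.82, beside -0.75 and -0.61 over all genes. Hdac7, a class II histone deacetylase that represses MEF2, fell by 3.37 ± 0.93 on the log2 scale (SE, adjusted p = 0.0222) in controls and fell by 4.29 ± 0.98 on the log2 scale (SE, adjusted p = 0.00123) in Casp2-depleted CMs. Camk2g, a calcium-dependent kinase, fell by 3.74 ± 1.09 on the log2 scale (SE, adjusted p = 0.0381) in controls, and in Casp2-depleted CMs its relative Camk2d fell by 1.97 ± 0.55 on the log2 scale (SE, adjusted p = 0.0175) and the p38 kinase gene Mapk14 fell by 2.68 ± 0.64 on the log2 scale (SE, adjusted p = 0.0023). None of the target genes and MEF2 regulators was called higher at P14.

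The genes most like each member in level over the 21 libraries were found by Spearman's rho among 3916 genes with a mean of at least 50 CPM, for the 6 members read in every library. Gata4 was most like Thrap3 (rho = 0.964), Mef2a most like Pde4b (0.965), Mef2d most like Atcayos (0.957) and Tbx20 most like Mta3 (0.89). Mef2c was most like Asb18 (0.906), followed by Myl2 (0.903), the ventricular myosin light chain. Meis1 was most like Zfp280d (0.914), followed by Gata4 (0.913). These values describe libraries that share day, depth and scaling and carry no test.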

How the data were processed

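Nuclear RNA was sequenced with QuantSeq 3′ FWD kits. Per the methods, the authors checked reads with FastQC 0.11.8, trimmed them with cutadapt 4.0, aligned them with STAR 2.6.1e to GRCm39 with Ensembl annotation and counted them with HTSeq 2.0.3 over whole genes. The deposited values are raw counts per gene and library. Gene names came from a GENCODE annotation of GRCm39 (56236 of 56923 identifiers, 99.5% of reads).

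Genes with at least 10 reads in all and a read in at least 3 libraries were fitted with edgeR 4.0.16 in R 4.3.3 (TMM scaling, robust quasi-likelihood, 6 group means over 21 libraries, 15 residual degrees of freedom), with Benjamini-Hochberg adjustment. The study used limma. A call needed an adjusted p under 0.05 and a log2 fold change above 1 in size. The members and gene lists were chosen with earlier results of these data known. Named beside the members were Casp2, genes overlapping a member, up to 5 called genes per list by size of change (with no call, the 3 with the highest mean CPM), and the 3 genes most like each member with a read in every library, by Spearman's rho among genes with a mean of at least 50 CPM, of which the first or the first 2 are printed. One gene that the rule names is not reported here. Family shares were compared by two-sided exact permutation tests within genotypes (Python 3.11.15). Scripts were tested on simulated data. Alternatives were DESeq2 1.42.0, limma 3.58.1, other scalings and filters, thinning to equal depth, all 24 libraries, added terms and leaving out each library. Family shares, reads per 1000 marker reads, the added terms and the fit without robust estimation were chosen after seeing the data. Depth per library was 891817 to 2924097 reads on genes.

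In the deposited names a replicate number stands for a batch. The deviations from the group means of same-numbered libraries correlated at 0.15, -0.10 and 0.18 at P1, at 0.27, 0.08, 0.12 and 0.13 at P7 and at -0.01 and 0.02 at P14.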

Additional observations from a re-analysis of the deposited data

Results flagged for a closer look

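Control replicate 2 of P7 stood far above the other 3 libraries of its group in Tbx20, at 1164 CPM with the next at 302 CPM, and in the share of Gata6 in the reads of Gata4 and Gata6, at 21.1%. These were 2 of 39 groups of 4 libraries compared, and chance alone marks about 1 in 20.

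The 3 libraries that the study left out also held reads of some of the factors, given here as CPM by library size. The paper left them out for low quality. At P14 few genes were detected in them, 2049 in control replicate 3 and 4285 in Casp2-depleted replicate 1. For control replicate 1 of P1 the paper proposes cytoplasmic contamination. In control replicate 1 of P1, 8 of the 10 members lay above every kept control library of that day, with Gata4 at 1161 CPM, Gata6 at 389 CPM, Tbx20 at 961 CPM, Nkx2-5 at 14.5 CPM, Mef2a at 582 CPM, Mef2d at 429.5 CPM, Hand2 at 65.5 CPM and Meis1 at 233 CPM. In control replicate 3 of P14 Mef2c stood at 499 CPM and Mef2d at 178 CPM, and in Casp2-depleted replicate 1 of P14 Mef2c stood at 386 CPM, each above the kept controls of P14. That control library held no read of Gata4, Gata6, Tbx5, Tbx20, Nkx2-5 or Hand2. The Casp2-depleted one held no read of Gata6, Tbx5, Tbx20, Nkx2-5, Mef2a or Hand2.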

How the results depend on the processing

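Of 3078 alternative values of the members' log2 fold changes, 2685 kept direction and side of the threshold, 127 no longer passed and 13 newly passed. The other 253 had the other sign, none of them for a called change, and 242 of these were of changes smaller than their own SE. From P1 to P7 there were 23 in controls and 38 in Casp2-depleted CMs, and from P7 to P14 there were 3 and 4. Counts of members called, from P7 to P14 in controls (5), became 0 with all 24 libraries, 3 with RLE size factors, 1 with library sizes alone, 2 with limma-voom and TMM, and 0 with limma-voom and quantiles, with the share of reads on no gene or with detected genes as a term (3 to 5 leaving out 1 library). In Casp2-depleted CMs (6) they became 3 with all 24 libraries or library sizes alone, 1 with quantiles and 2 with limma-voom and TMM or either term (4 to 6). From P1 to P14 in controls (1) they became 0 with all 24 libraries, either limma-voom fit, only the groups compared or detected genes, and 2 with the replicate block or the share on no gene (1 to 2). In Casp2-depleted CMs (5) they became 2 with all 24 libraries or either term, 3 with library sizes alone or only the groups compared, and 1 with either limma-voom fit (2 to 6). Between genotypes at P14 (1) they became 0 with the replicate block, all 24 libraries, library sizes alone, either limma-voom fit, only the groups compared, filterByExpr, no filter or no robust estimation (0 to 2). The difference between genotypes ranged from 0 to 1 from P7 to P14 and from P1 to P14, where DESeq2 gave 1. The block changed no other count by over 1.5 times. Changes larger than their SE turned, with the share on no gene as a term, to -0.15 for Gata4 and -0.31 for Mef2a from P1 to P7 in controls, 0.027 for Mef2c from P7 to P14 in controls, -0.27 for Gata4 between genotypes at P1, and, for the genotype difference, 0.36 for Gata4 from P1 to P7, 0.65 for Gata4 and 0.046 for Mef2a from P1 to P14. That Gata4 difference was also 0.081 with all 24 libraries, 0.11 with the replicate block and -1.26 to 0.24 leaving out 1 library, above 0 without control replicate 1 of P14, and Meis1 between genotypes at P14 ranged from -1.18 to 0.15 likewise, above 0 without that library. The cause was not tested. Levels of Hand2, Nkx2-5 and Gata6 at P14 were limited by depth.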
